A study of Mus musculus with 9 samples.

Results

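The 5 genes described here, Ccl2, Ccl7, Ccl8, Ccl11 and Ccl12, encode the eotaxin and monocyte chemoattractant group of the CC chemokines. All probe sets whose single gene symbol in the array's annotation is one of these names were taken, which gave 1 probe set per gene, and so 5 genes of the 8251 that the array names by a probe set with 1 symbol. Lung total RNA of C57BL6 mice had been hybridized to 9 Affymetrix mouse arrays in 3 groups of 3, all from a model of asthma induced with ovalbumin (OVA, the egg-white protein used as allergen). One group had received saline as its challenge and a second the allergen itself. The third (the agonist group below) had received the allergen together with a compound that activates EP3, one of the prostaglandin E2 receptors. Both allergen groups are marked 24 h in their titles, the saline group carries no time, and no source used here gives the compound's name, its dose and timing, the sensitization, or the age and sex of the mice. Whether the 3 arrays of a group came from separate mice is not stated either, so p-values measure the spread between these samples, which may be technical.

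CC chemokines are small secreted proteins that bind G protein-coupled receptors on white blood cells and draw those cells into tissue. Ccl11, or eotaxin, acts through Ccr3 and attracts eosinophils, the granulocytes that accumulate in allergic airways, while Ccl2, Ccl7 and Ccl12 act on Ccr2 and attract monocytes, the blood precursors of many tissue macrophages. Airway epithelium, fibroblasts, smooth muscle and macrophages make these chemokines in inflamed lung, under the control of interleukins 4 and 13 through Stat6 and of TNF and interleukin 1 through NF-kB.

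The members are neighbours. In the RefSeq annotation of GRCm38.p6 the genes follow each other on chromosome 11 in the order Ccl2, Ccl7, Ccl11, Ccl12, Ccl8, with 1 long noncoding RNA gene, Gm38913, between Ccl11 and Ccl12, and with Ccl1, another CC chemokine, next after Ccl8. Promoter sequences from the RefSeq table of that build were matched for 2 of the 5 members, Ccl8 and Ccl12. They are shown because one of these adjacent genes was detected on every OVA and agonist array and the other on no array, and each is the 250 bases before the annotated start, 5′ to 3′, with the match to the TATA box letters TATAAA in capitals. Ccl8 lies at chr11:82114935-82115184 (+) and Ccl12 at chr11:82101595-82101844 (+).
Ccl8: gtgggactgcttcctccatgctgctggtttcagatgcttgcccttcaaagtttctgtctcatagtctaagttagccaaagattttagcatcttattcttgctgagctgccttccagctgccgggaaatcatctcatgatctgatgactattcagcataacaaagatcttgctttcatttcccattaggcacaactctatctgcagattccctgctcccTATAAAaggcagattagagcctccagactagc
Ccl12: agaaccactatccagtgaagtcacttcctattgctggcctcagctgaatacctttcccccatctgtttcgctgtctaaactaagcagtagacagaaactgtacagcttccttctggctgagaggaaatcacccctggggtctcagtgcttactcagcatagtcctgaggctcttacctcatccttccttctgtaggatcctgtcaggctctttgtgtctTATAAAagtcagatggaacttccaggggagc
TATAAA ended 27 bases before the start in Ccl8 and 26 bases before it in Ccl12, and 12.4% of the 32841 promoters in the table held it on either strand within the same length. Searches of both strands for TTCNNNNGAA (the Stat6 form of the STAT site, in 5.85% of promoters), TTCNNNGAA (the general STAT site, 7.02%), GGGNNNNNCC (a loose NF-kB site, 45.8%) and TGANTCA (AP-1, 6.75%) found no match in either window. None of these patterns overlaps TATAAA. A match to letters is a description of the sequence and not evidence of binding.

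Intensities were deposited on a linear scale with values below 0, and factors of 0.741 to 1.29 brought the 9 arrays to the same 2% trimmed mean. An intensity of 44.7, the 40th percentile of all values, served as the detection limit, and 59.6% to 60.6% of the probe sets on each array lay above it. For testing, values under 3.10 (the 20th percentile) were raised to that floor, log2 was taken, and the 7920 probe sets above the detection limit on at least 3 arrays were fitted with limma, whose p-values were adjusted by Benjamini-Hochberg over all 7920. A difference was called at an adjusted p under 0.05. Arrays of the saline and OVA groups correlated within their group at r of 0.9066 to 0.9258 across probe sets, which are not replicates. Agonist replicate 3 stood apart from its group: it correlated at 0.88 and 0.8787 with agonist replicates 1 and 2 and at 0.904 with OVA replicate 3. The members' results that involve the agonist, and the counts of the gene lists in agonist against OVA, are therefore given with and without it. Lung epithelial markers, which check the tissue label, were bright on every array, with a summed intensity of 8 genes between 27160 and 41565.

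Ccl2, Ccl7, Ccl8 and Ccl11 exceeded the detection limit on all OVA arrays, Ccl2 and Ccl7 by little on OVA replicate 3, and lay near or below it on all saline arrays. Of the 5 members, 4 entered the test. Ccl2 and Ccl7 passed the filter only through the 3 OVA arrays, and Ccl11 through these and 1 agonist array, so their entry depended on the group where they were high. Ccl12 was at or below the detection limit on all 9 arrays. OVA against saline was the comparison in which every tested member was called, all of them higher. In agonist against OVA, Ccl2 and Ccl11 were called lower, and Ccl7 and Ccl8 did not pass.

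**Figure D1:**
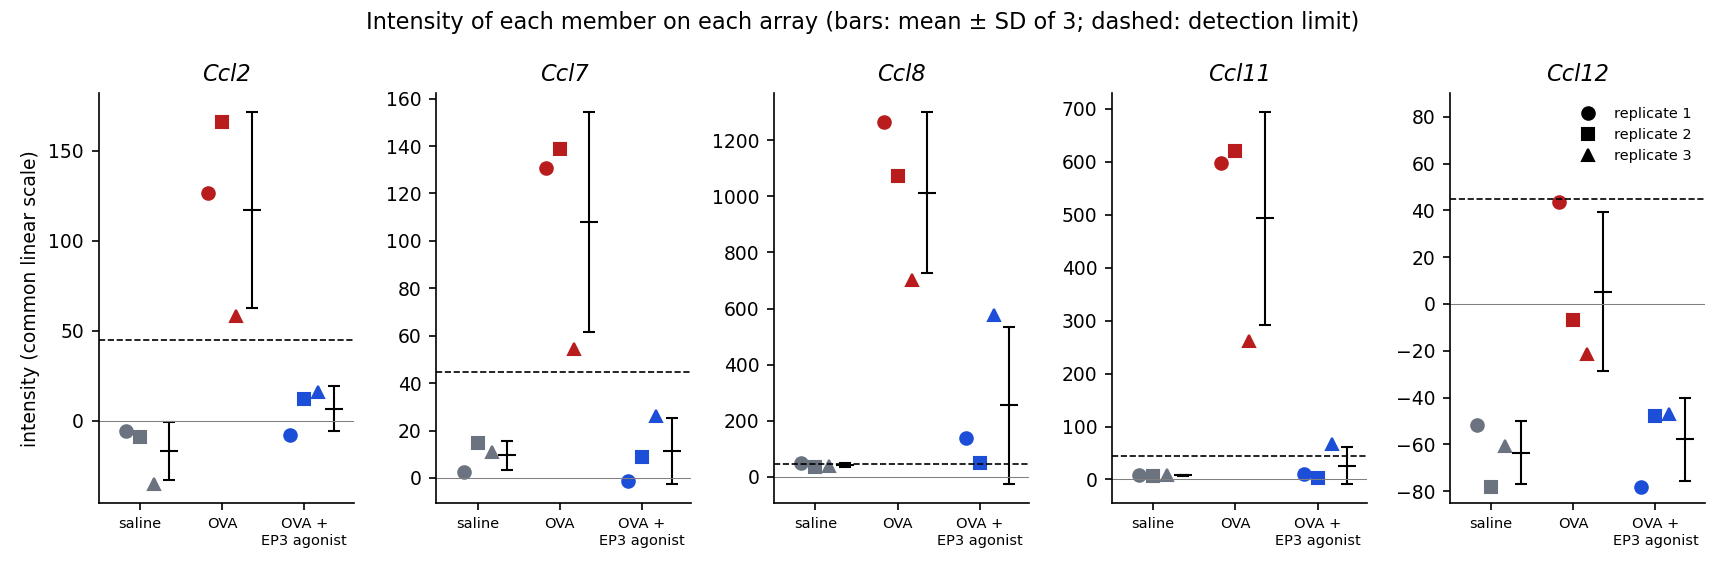
Scaled intensity (linear axis, a different range in each panel) of the 5 members on each of the 9 arrays, with symbols for replicates 1 to 3, bars for the mean ± SD of 3 arrays and a dashed line at the detection limit of 44.7. In Ccl2, Ccl7, Ccl8 and Ccl11 all 3 OVA arrays lie above all saline and agonist arrays, OVA replicate 3 is the lowest OVA array, and agonist replicate 3 is the highest agonist array.

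Ccl11 (probe set 92742_at), the eosinophil chemoattractant, read 8.33, 7.12 and 8.01 on saline replicates 1, 2 and 3. On OVA replicates it read 597.6, 619.8 and 261.3, and on agonist replicates 9.68, 2.44 and 66.5. The 3 OVA arrays were far above all others, 2 agonist arrays lay at the saline level, and agonist replicate 3 was the only array outside the OVA group above the detection limit. The means were 7.82 ± 0.629 (SD, n = 3) in saline, 492.9 ± 201 in OVA and 26.2 ± 35.1 in agonist lung. The OVA mean was at least 10.3-fold above saline, a lower bound because all saline arrays lay below the detection limit, against which the bound is taken. On the fitted scale the log2 change from saline to OVA was 5.88 ± 0.98 (SE, limma adjusted p = 0.0192). From OVA to agonist it fell by 5.19 ± 0.98 (adjusted p = 0.0444), or by 3.17 when all values under the detection limit were held at it (adjusted p = 0.00519). Agonist replicates 1, 2 and 3 stood at 1.96%, 0.495% and 13.5% of the OVA mean, where the detection limit itself is 9.07%.

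Ccl8 (92459_at), called monocyte chemoattractant protein 2 and in the mouse an agonist of Ccr8, was the member that stayed measurable in agonist lung. Its saline replicates read 50.4, 35.8 and 40.2 and its OVA replicates 1266, 1071 and 701.1. Its agonist replicates read 139, 50.7 and 575.4. All agonist arrays lay above the detection limit and spread widely, from just above the highest saline array to a level near the lowest OVA array. The means were 42.1 ± 7.51 (SD, n = 3) in saline, 1013 ± 287 in OVA and 255 ± 281 in agonist lung. OVA exceeded saline 23.6-fold (log2 change 4.56 ± 0.77 SE, limma adjusted p = 0.0194). The agonist group was 6.17-fold below OVA, a log2 change of −2.63 ± 0.77 that did not pass (adjusted p = 0.0962). As a share of the OVA mean the agonist arrays were at 13.7%, 5% and 56.8%, so that a single array held most of the remaining signal of the group.

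Ccl2 (102736_at), monocyte chemoattractant protein 1 and the main ligand of Ccr2, was detected only in the OVA group. Saline replicates read −5.76, −9.24 and −35.3, OVA replicates 126.3, 166.2 and 58.4, and agonist replicates −7.81, 11.9 and 15.7. Every OVA array exceeded the detection limit, and the 6 other arrays lay well under it, with OVA replicate 3 the closest to the limit. The means were −16.8 ± 16.2 (SD, n = 3) in saline, 116.9 ± 54.5 in OVA and 6.61 ± 12.6 in agonist lung. OVA lung was at least 2.39-fold above saline (log2 change 5.11 ± 0.62 SE, limma adjusted p = 0.00949). Agonist lung was at least 2.39-fold below OVA (log2 change −3.68 ± 0.62, adjusted p = 0.0381). The fitted changes depend on the floor, since all saline arrays and agonist replicate 1 lie under it: held at the detection limit they were 1.26 (adjusted p = 0.0407) and −1.26 (adjusted p = 0.0598).

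Ccl7 (94761_at), monocyte chemoattractant protein 3, which acts on Ccr2 and also on Ccr1 and Ccr3, resembled Ccl2. It read 2.58, 14.8 and 11 on saline replicates, 130.6, 138.6 and 54.5 on OVA replicates, and −1.28, 8.85 and 26.2 on agonist replicates. Again only the OVA arrays were above the detection limit, and the ranges of saline and agonist arrays overlapped. The means were 9.46 ± 6.25 (SD, n = 3) in saline, 107.9 ± 46.4 in OVA and 11.3 ± 13.9 in agonist lung. OVA was at least 2.23-fold above saline (log2 change 3.64 ± 0.87 SE, limma adjusted p = 0.0425). That call was lost without a floor (adjusted p = 0.0969), without the filter (0.0789) and with an intensity trend and robust prior (0.0509). The change from OVA to agonist, −3.48 ± 0.87, did not pass (adjusted p = 0.0718), although all 3 agonist arrays lay below all 3 OVA arrays. That separation followed from the gene's entry into the test through the OVA arrays alone.

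Ccl12 (93717_at), the mouse monocyte chemoattractant protein 5, could not be measured. It read −51.6, −78.2 and −60.9 on saline replicates, 43.5, −6.75 and −21.2 on OVA replicates and −78.3, −47.8 and −47.2 on agonist replicates. The 3 OVA arrays were the highest of the 9, yet every value was at or below the detection limit, so no fold is given. In a fit without the filter on dim probe sets the log2 change from saline to OVA was 1.27 ± 1.00 (limma adjusted p = 0.539) and from OVA to agonist −1.27 ± 1.00 (adjusted p = 0.571), and both sizes are set by the floor.

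**Figure D2:**
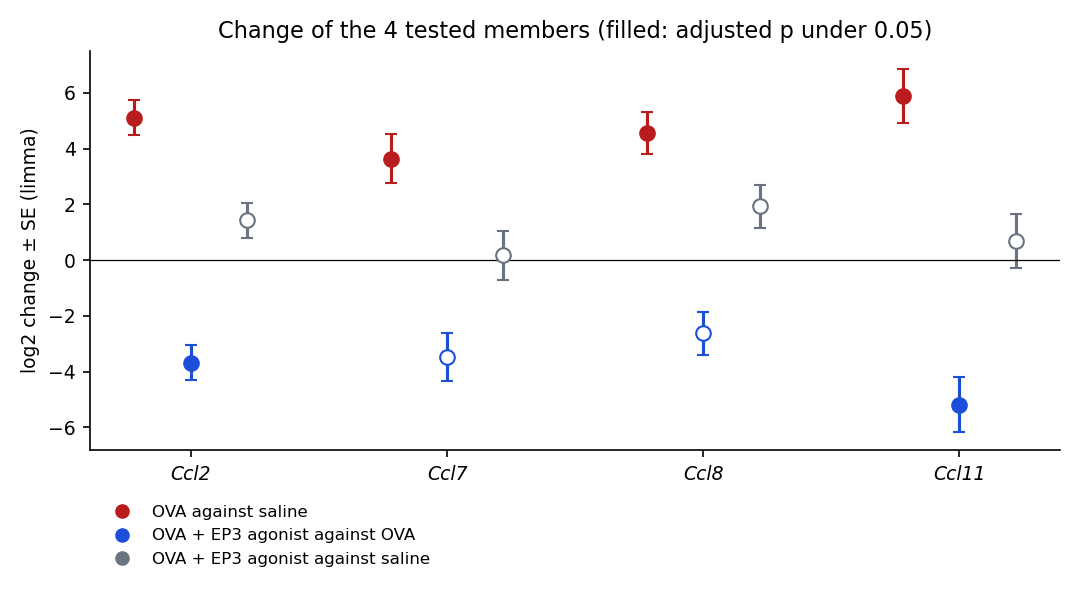
Log2 change with its standard error from limma (n = 3 arrays per group) for the 4 tested members in the 3 comparisons, filled where the adjusted p is under 0.05. All 4 are filled for OVA against saline, Ccl2 and Ccl11 for agonist against OVA, and 0 for agonist against saline.

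Allergen challenge, the first comparison, asks what OVA altered in the lung. All 4 tested members were called higher in OVA lung, in a comparison where 5.08% of the 7920 probe sets were called higher and 4.42% lower. As the filter admitted Ccl2, Ccl7 and Ccl11 through their OVA arrays, the count of 4 is a description and nothing is read from it against these shares. In all 5 members no saline array reached the lowest OVA array, which held for 15.5% of the tested probe sets in this direction. For Ccl2 and Ccl7 this followed from their entry through the OVA arrays alone, and Ccl12 was not tested. Nothing is read from this separation against that share. The median change of all tested probe sets was −0.08 on the log2 scale. As the groups did not overlap, differences between arrays with the same replicate number had to share a sign, and only their sizes are described. For Ccl11 they were 6.16, 6.44 and 5.03 for numbers 1, 2 and 3, for Ccl8 4.65, 4.90 and 4.13, for Ccl2 5.35, 5.75 and 4.24, and for Ccl7 5.40, 3.23 and 2.30. Number 3 gave the smallest difference in each of these 4 genes. OVA replicate 3 stood at 39.9% of the mean of the other 2 OVA arrays for Ccl2, 40.5% for Ccl7, 60% for Ccl8 and 42.9% for Ccl11. Exact two-sided permutation tests of the mean intensity gave p = 0.1 for each of the 5 members, which is the smallest value that 3 arrays against 3 allow. That value follows from the same separation of the groups. The calls changed with the arrays that entered: without any one of saline replicates 1, 2 and 3 or OVA replicates 1 and 2, only Ccl2 passed, while without OVA replicate 3 the calls were 3, with Ccl7 lost (adjusted p = 0.0544). Without agonist replicate 2, which enters only through the pooled spread, 3 passed, and without agonist replicate 1 or 3 all 4 did. The sizes moved less: with each array left out in turn the log2 change ran from 4.38 to 4.80 for Ccl8, 5.66 to 6.29 for Ccl11, 4.79 to 5.55 for Ccl2 and 2.96 to 4.09 for Ccl7.

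Addition of the EP3 agonist, the second comparison, asks what the compound altered in challenged lung. It shares the OVA arrays with the first, so the 2 sets of changes are not independent and are only listed side by side. Of the 4 tested members 2 were called lower and 0 higher, where 1.5% of the 7920 probe sets were called lower and 1.25% higher. The same filter favoured this direction, since it admitted genes that were high in OVA lung, and this count too is a description. In all 5 members every agonist array was below every OVA array, as in 12% of the tested probe sets. Here too the separation of Ccl2 and Ccl7 followed from their entry, Ccl12 was not tested, and nothing is read from it against that share. The gap was narrow for Ccl8, whose highest agonist array read 575.4 and whose lowest OVA array read 701.1. The exact permutation test gave p = 0.1, its smallest value, for all 5. The separation of the groups fixes that value and the sign of the differences that follow. Within replicate numbers 1, 2 and 3 the log2 difference was −5.95, −7.64 and −1.97 for Ccl11, −5.35, −3.80 and −1.89 for Ccl2, −5.40, −3.97 and −1.06 for Ccl7, and −3.19, −4.40 and −0.29 for Ccl8. Number 3, which joins the lowest OVA array to the highest agonist array, gave the smallest difference each time.

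The number of members that passed changed with each array left out. Without agonist replicate 3 all 4 tested members were called lower, with log2 changes of −6.39 for Ccl11 (limma adjusted p = 0.00244), −4.14 for Ccl2 (0.0174), −4.25 for Ccl7 (0.0332) and −3.55 for Ccl8 (0.00949). With any one of the saline arrays, OVA replicates 1 and 2 or agonist replicates 1 and 2 left out instead, 0 passed, and without OVA replicate 3 only Ccl2 did (0.0429). The members' directions were the same in each of these fits. In fits of all 9 arrays, the Ccl2 call was lost without a floor (0.0681), with the floor at the detection limit (0.0598), without the filter (0.0555), with an intensity trend and robust prior (0.08) and with the replicate block. The Ccl11 call was lost without the filter (0.067) and with the replicate block.

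**Figure D3:**
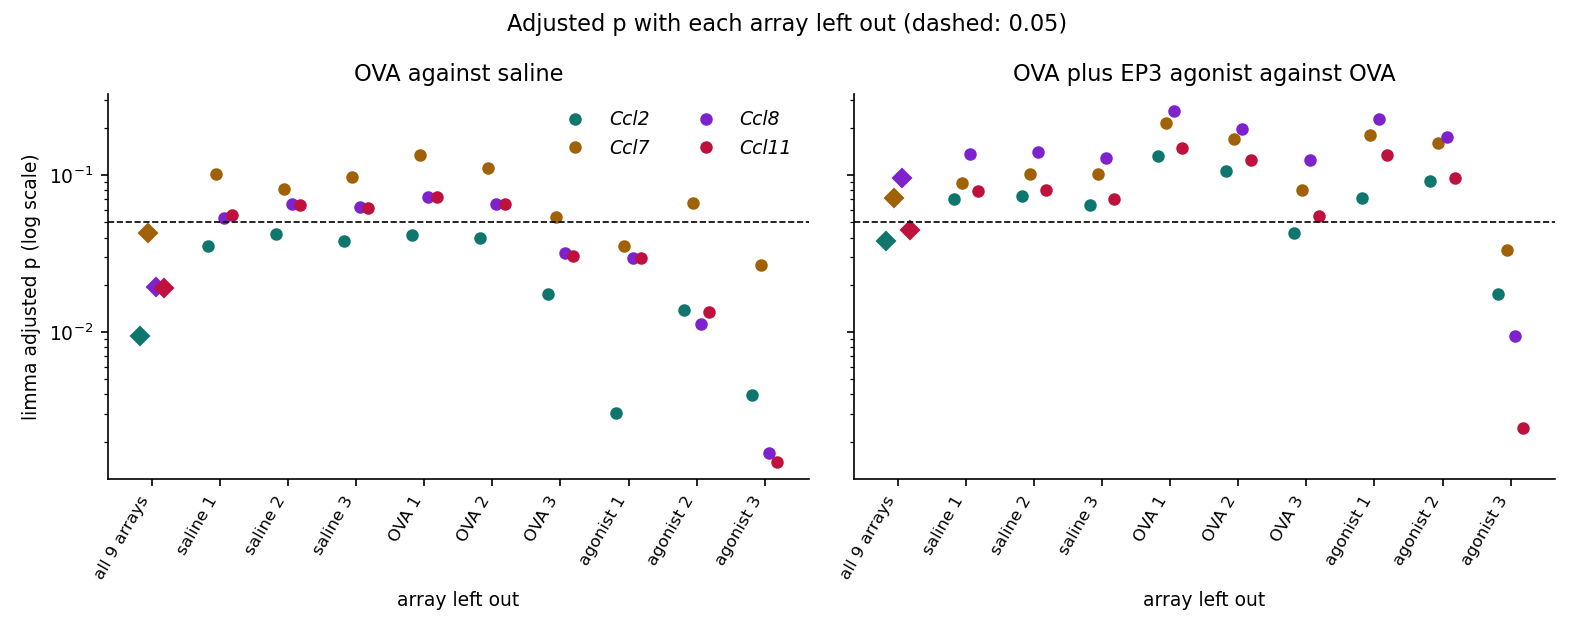
Limma adjusted p (log axis) of the 4 tested members with all 9 arrays (diamonds) and with each array left out in turn (circles), for OVA against saline and for agonist against OVA, with a dashed line at 0.05. Ccl2 stays under the line throughout in OVA against saline, and in agonist against OVA all 4 members lie under it only where agonist replicate 3 is left out.

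Agonist against saline, the third comparison, asks how treated challenged lung stood against unchallenged lung. None of the 4 tested members was called by limma, in a comparison where 0.0379% of the 7920 probe sets were called higher. An unadjusted p under 0.05 was found for 1 of the 4 and for 7.71% of the 7920. Ccl8 had the largest difference, 3.82-fold (log2 change 1.94 ± 0.77 SE, adjusted p = 0.605), and its groups did not overlap, which was true of 6.65% of the tested probe sets in this direction. That separation is a matter of 50.7 on agonist replicate 2 against 50.4 on saline replicate 1. The changes were 1.43 ± 0.62 for Ccl2 (adjusted p = 0.651), 0.17 ± 0.87 for Ccl7 (0.978) and 0.69 ± 0.98 for Ccl11 (0.908). Without agonist replicate 3 they were 0.97 for Ccl2, −0.60 for Ccl7, 1.01 for Ccl8 and −0.51 for Ccl11, and 0 were called. Missing the threshold does not show that the groups had the same level: for Ccl2 and Ccl7 a level of up to 38.2% and 41.4% of the OVA mean would lie under the detection limit.

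Of the genes for receptors and scavengers of these chemokines, 7 of 8 listed were on the array and 5 were tested. Of the 5, 1 rose in OVA lung (background 5.08%) and 1 fell (4.42%), and 0 were called in agonist against OVA, with or without agonist replicate 3. Ccr2, the receptor of Ccl2, Ccl7 and Ccl12 on monocytes, read 158.7, 149 and 84.6 on saline, 399.8, 414 and 350.2 on OVA replicates and 177.3, 225.5 and 384.6 on agonist replicates. It was 3.07-fold higher in OVA lung (log2 change 1.62 ± 0.33 SE, limma adjusted p = 0.0289). The Ccr2 call was lost without the filter and with the replicate block, and held in 4 of 9 fits with an array left out. Agonist replicate 3 was the highest of its group, as for each tested member. For Ccr2 it lay within the range of the OVA arrays, whereas for the members it lay below all OVA arrays. Agonist replicates 1 and 2 of Ccr2 were below its OVA range. The Ccr2 change from OVA to agonist was −0.64 (limma adjusted p = 0.279). Ackr2, a decoy receptor that binds and removes inflammatory CC chemokines, changed by −0.48 ± 0.11 in OVA lung (limma adjusted p = 0.0381). The Ackr2 call was lost with equal array medians, with only the 6 arrays compared and with the replicate block. It held in 2 of 9 fits with an array left out. Ccr1 had a log2 change of 1.58 (adjusted p = 0.174) and Ackr4, a scavenger of homeostatic chemokines, −0.83 (adjusted p = 0.314). Ccr3, the eotaxin receptor of eosinophils, was above the limit on only 1 array, at 44.8 on OVA replicate 3, and was not tested.

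Other CC chemokines were set beside the members, with 9 of 16 listed genes on the array and 7 tested. Of these, 3 rose in OVA lung (background 5.08%) and 0 fell, with a median log2 change of 0.60 over the 7. Ccl17, an attractant of type 2 helper T cells through Ccr4, read −102.6, −114.9 and −111.8 on saline, 655.5, 656.7 and 426.7 on OVA replicates and −49.0, −31.8 and −90.2 on agonist replicates, so agonist replicate 3 was not raised for this gene. It was at least 12.7-fold higher in OVA than in saline lung (limma adjusted p = 4.44e-07). With the agonist it was the single gene of the 7 called lower (adjusted p = 4.44e-07, background 1.5%). It entered the test only through its OVA arrays. All its saline and agonist arrays lay under the floor and took the same value, which makes both p-values small. It passed in both comparisons with each array left out in turn, but the shared floor value favours that, and nothing is read from it. Ccl9, a macrophage-derived ligand of Ccr1, read 83.4, 28.6 and 69.7, then 1029, 1093 and 593, then 122.6, 129.9 and 370. It followed the members' array pattern, with a rise of 3.99 ± 0.55 on the log2 scale (adjusted p = 0.0115) and a change of −2.27 with the agonist that did not pass (adjusted p = 0.0687). Ccl6, a related macrophage chemokine, rose by 1.33 ± 0.19 (adjusted p = 0.0115), and its change with the agonist was −0.76 (adjusted p = 0.0692). Without agonist replicate 3, Ccl9 (adjusted p = 0.0259) and Ccl6 (0.0162) were called lower as well. Ccl1, the gene next to Ccl8 on the chromosome, read 69.6, 84.9 and 88.6 on saline, 41.8, 86 and 72.6 on OVA replicates and 60.4, 82.7 and 163.6 on agonist replicates, with overlapping groups and a log2 change of −0.33 in OVA lung (adjusted p = 0.614). Ccl22, the other Ccr4 ligand, had a change of 0.60 (adjusted p = 0.0595).

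The cytokines that induce the members were mostly too dim to test: 11 of 15 listed genes were on the array and 4 were tested, of which 0 were called in either comparison. Without agonist replicate 3, 0 of them were called in agonist against OVA. The cytokine genes Il4, Il6 and Tnf lay at or below the detection limit on all arrays, and Il13 exceeded it on 2 arrays, with 46.6 on saline replicate 2 and 57.9 on OVA replicate 2. Il1b read 30.6, −3.08 and −0.364 on saline, 88.9, 73.5 and 33 on OVA replicates and 196.7, 12.5 and 89.9 on agonist replicates, with a log2 change of 3.17 in OVA lung that did not pass (limma adjusted p = 0.132). Of 13 tested receptors and signalling genes of these cytokines, among them Il4ra, Stat6, Rela and Stat3, 0 were called, with a median log2 change of 0.06 in OVA lung. In agonist against OVA 0 were called with or without agonist replicate 3. The largest change among them was that of Jak3, 0.84 ± 0.30 (adjusted p = 0.108). The agonist's own receptor gene, Ptger3, was at or below the limit on all arrays, between −2.98 and 3.46. Ptger2 was tested and changed by 0.27 (adjusted p = 0.2). Ptger4, which did not reach 3 arrays above the limit, read 12.9, 9.24 and 12.5 on saline, 80.4, 75.3 and 33.1 on OVA replicates and 1.52, 14.5 and 10.4 on agonist replicates.

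Markers of the cells that make or follow these chemokines moved across the same arrays. In bulk RNA fewer cells of a type and less RNA per cell cannot be told apart. Shares over all probe sets in OVA against saline, 5.08% higher and 4.42% lower, are the background of the list counts that follow. In agonist against OVA they were 1.25% higher and 1.5% lower, and without agonist replicate 3, a setting added for the lists after seeing the data, 2.73% and 3.8%. Of 9 tested monocyte and macrophage genes 5 rose in OVA lung (Chil3, Ccr2, Cd68, Mrc1 and Csf1r), and 1, Lyz2, fell, a fall no longer called with equal array medians. In agonist against OVA 1 was called higher, Lyz2 (limma adjusted p = 0.0444), and 0 lower. Without agonist replicate 3, 4 were called lower (Chil3, Cd68, Mrc1 and Csf1r), and Lyz2 was again called higher. The median log2 change of the 9 was 0.65. Chil3, a chitinase-like protein of alternatively activated macrophages, read 1638, 1783 and 1705 on saline, 5303, 6145 and 5401 on OVA replicates and 2290, 2184 and 4871 on agonist replicates (log2 change 1.72 in OVA lung, limma adjusted p = 0.0187). The intensity summed over the 12 genes of the list on the array ran from 9032 to 10029 in saline and from 12669 to 13936 in OVA lung, and was 10780, 11090 and 14243 on agonist replicates 1, 2 and 3. The highest sum of all 9 arrays, on agonist replicate 3, exceeded the OVA sums through Lyz2, the lysozyme of macrophages. Lyz2 read 6062 there and 3637 to 4645 on the OVA arrays. It was not raised on replicate 3 within its group, since agonist replicates 1 and 2 read 6099 and 6343. Summed without Lyz2, the other 11 genes gave 3883 to 4145 in saline, 8769 to 9728 in OVA and 4681, 4747 and 8181 on agonist replicates. Chil3 alone supplied 4871 of the 8181 on agonist replicate 3. By either sum agonist replicate 3 was the highest array of its group, as it was for each tested member, and without Lyz2 it lay below all OVA arrays. The part of these markers in the members' changes was not tested.

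Eosinophil markers were mostly not measurable. Of 11 listed, 7 were on the array, and 5 of these were at or below the detection limit on every array. Among the 5 were the granule protein genes Epx, Prg2 and Prg3. Values under the limit do not show that a transcript was absent from the lung. The only one tested, Alox15, a lipoxygenase that alternatively activated macrophages also express, read −28.3, −33.1 and −35.6 on saline, 213, 273.4 and 105.9 on OVA replicates and 2.92, −24.9 and −26.3 on agonist replicates. It was at least 4.1-fold higher in OVA lung (limma adjusted p = 1.06e-04) and was called lower with the agonist (adjusted p = 7.98e-05). It entered the test only through its OVA arrays, and all its saline and agonist arrays took the floor value. That makes both p-values small and favours the calls, which also held with each array left out in turn, so nothing is read from this. Neutrophil genes were not called (0 of 7 in both comparisons, and 0 in agonist against OVA without agonist replicate 3). Their summed intensity, though, was 1058 to 1103 in saline and 1066 to 1324 in OVA lung against 4697, 1086 and 4206 on agonist replicates. That sum was high on agonist replicates 1 and 3, whereas the members were raised on replicate 3 and, for Ccl8, less so on replicate 1. S100a8, a calcium-binding protein gene abundant in neutrophils, read 2281, 287.3 and 2026 there. T cell markers (0 of 6) and mast cell and basophil markers (0 of 4) were not called in either comparison, although without agonist replicate 3 the T cell list's Thy1, which fibroblasts also express, was called lower with the agonist (adjusted p = 0.00589). The summed T cell intensity was 442 to 549 in saline, 615 to 779 in OVA and 537 to 598 in agonist lung.

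Marker genes of structural cells were measured too, both of cells named above as sources of these chemokines and of endothelium and heart muscle. Of 6 tested smooth muscle genes 3 rose in OVA lung, Tpm2, Acta2 and Tagln. The summed intensity was 2938 to 3166 in saline, 4348 to 5122 in OVA and 3289 to 3695 in agonist lung. In agonist against OVA, Acta2 and Tagln were lower but not called (limma adjusted p = 0.0546 and 0.1). Tpm2 did not fall: its log2 change ran from −0.02 to 0.28 with each array left out (adjusted p = 0.711 with all 9). In agonist against saline 1 of the 6 was called higher, where 0.0379% of all tested probe sets were. Acta2, smooth muscle actin, was 1.75-fold higher in OVA lung (log2 change 0.81 ± 0.13 SE, limma adjusted p = 0.0181). Of 8 fibroblast genes 2 fell, and of 8 endothelial genes 5 fell, with endothelial sums of 8184 to 8829 in saline, 6134 to 6742 in OVA and 8263 to 8452 in agonist lung. Heart muscle genes, 5 of 8 lower in OVA lung, summed to 4192 to 5071, 3286 to 4017 and 4212 to 4803 in the same order, and 3 of 8 lung epithelial genes were lower. In agonist against OVA 0 of these smooth muscle genes, 2 endothelial genes (Cdh5 and Tek), 1 fibroblast gene (Pdgfra), 1 epithelial gene (Cyp2f2) and 1 heart gene (Myh6) were called, all higher. With equal array medians neither endothelial gene was called and Acta2 was called lower. Without agonist replicate 3 the same 5 genes were called higher, joined by the heart genes Tnnc1 and Myl7, while Acta2 (adjusted p = 0.029), Col1a1 and Thy1 were called lower. The summed levels of all OVA arrays lay apart from those of all 6 other arrays for smooth muscle and endothelium. With narrow gaps they also did for heart muscle, lung epithelium, T cells, and mast cells and basophils. The eosinophil sum separated as well, but it rested on Alox15, which macrophages also express, and does not show a separation of eosinophils. Among the single probe sets tested, OVA and saline arrays did not overlap in 15.5% with OVA higher and in 22% with OVA lower. Agonist and OVA arrays did not overlap in 12% with the agonist lower and in 17.8% with it higher. No such share was taken for sums, and nothing is read from these separations. The sums overlapped for monocytes and macrophages, neutrophils and fibroblasts, and the part of tissue makeup in the chemokine changes was not tested.

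**Figure D4:**
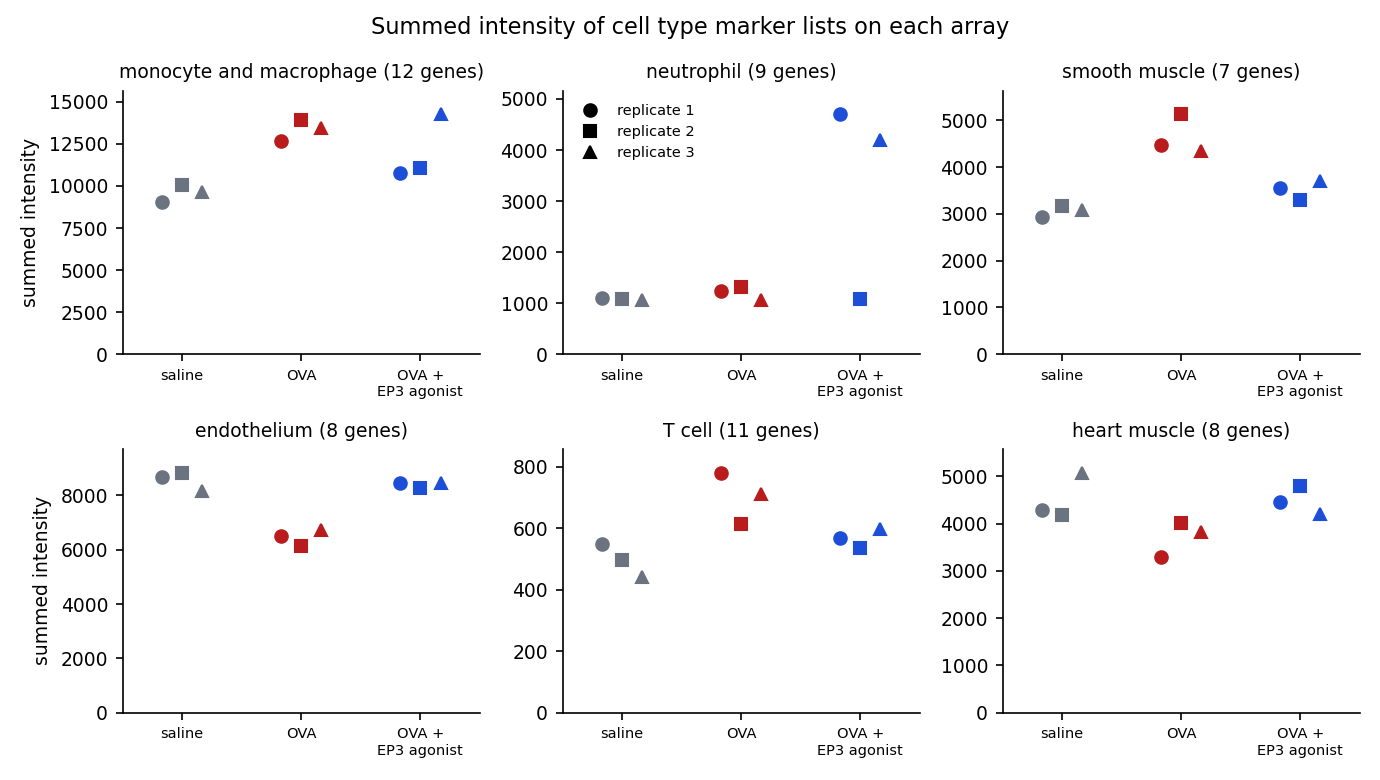
Summed scaled intensity (linear axis from 0) of 6 lists of cell type markers on each of the 9 arrays, with symbols for replicates 1 to 3 and the number of genes of each list on the array. The monocyte and macrophage sum is 14243 on agonist replicate 3, above all OVA arrays, but 8181 and below them when Lyz2 is left out, and the neutrophil sum is high on agonist replicates 1 and 3 only.

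Genes whose profile was most like that of the chemokines were ranked by Pearson r over the 9 arrays among 5916 genes, against the mean of the 4 tested members' standardized log2 profiles. This is a description: the 9 arrays share 3 groups, and a gene that rises in OVA lung and falls with the agonist scores high for that reason. The 10 highest were Glrx (r = 0.996), Lgals1 (0.995), Apex1 (0.991), Fcgr2b (0.991), Irf5 (0.99), Nans (0.99), Cyba (0.989), Chia1 (0.988), Sec61b (0.988) and Nme2 (0.988). Fcgr2b, the inhibitory receptor for IgG on macrophages and B cells, read 38.7, 47.9 and 38.6 on saline, 232.9, 246.7 and 172.1 on OVA replicates and 55.3, 56.3 and 116.5 on agonist replicates. Lgals1, the gene of galectin 1, read 945.5, 1033 and 988.4, then 2043, 2189 and 1714, then 1009, 1110 and 1414. Both genes repeat the members' order of arrays, with OVA replicate 3 lowest of its group and agonist replicate 3 highest of its own.

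Single members had different nearest genes. For Ccl11 they were Chia1, the acidic mammalian chitinase of airway epithelium (r = 0.99), Ssr3 (0.983) and Lat2 (0.981). Chia1 read 370.4, 271.5 and 349.6 on saline, 3272, 3781 and 2251 on OVA replicates and 334.6, 297.2 and 985.8 on agonist replicates, and like Ccl11 it showed 2 agonist arrays at the saline level. For Ccl8 they were Lcn2, the iron-siderophore binding lipocalin 2 (0.992), Lgals3, the macrophage lectin galectin 3 (0.982), and Lcp1 (0.979). Lcn2 read 496.7, 547.7 and 572.4, then 2608, 2946 and 2000, then 986.2, 568.9 and 1875, which repeats the order 3, 1, 2 of the agonist arrays seen for Ccl8. For Ccl2 the nearest were Ldha (0.986), Lgals1 (0.984) and Ctsz (0.979), and for Ccl7 Tubb5 (0.964), Psap (0.962) and Actr3 (0.955).

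**Figure D5:**
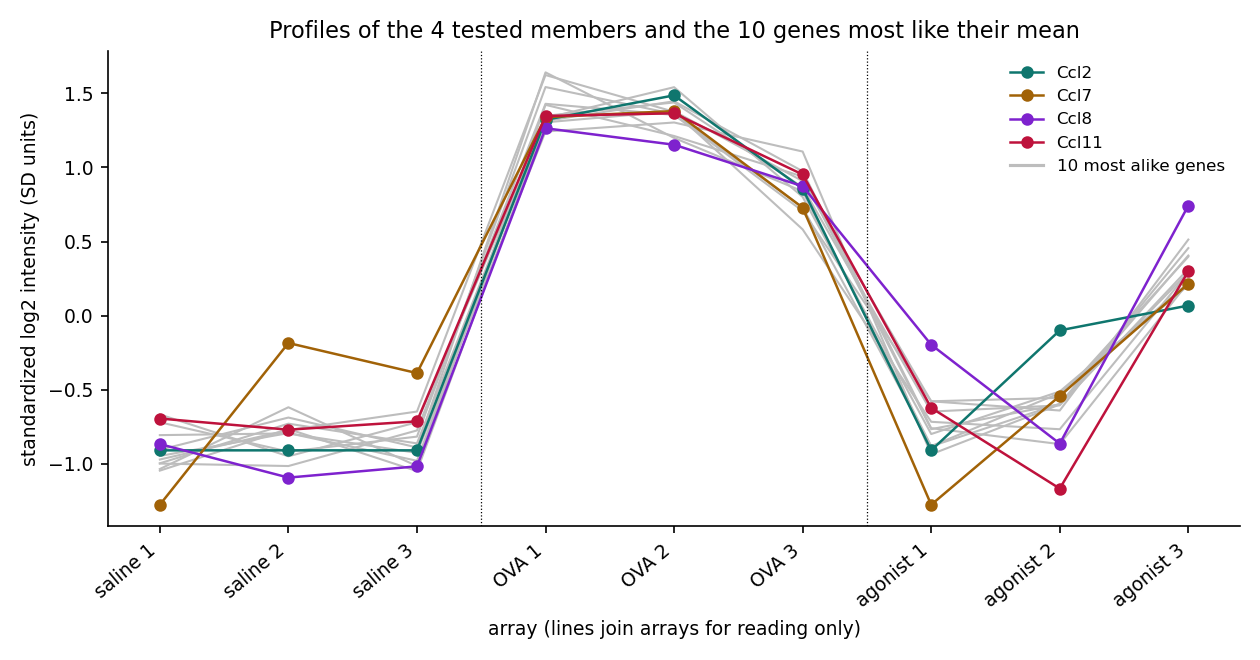
Log2 intensity standardized over the 9 arrays (SD units) of the 4 tested members (coloured) and of the 10 genes with the highest r to their mean profile (grey, r between 0.988 and 0.996), with lines that join arrays for reading only. All lines are highest in the OVA group, and agonist replicate 3 is the highest agonist array of each member.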

How the data were processed

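The deposited values are linear intensities, 1 per probe set and array, from the authors' series table; the scanner, summarization and background subtraction behind them are stated in no source used here. Groups and replicate numbers were taken from the sample titles, and gene names from the platform's annotation (10833 probe sets with 1 symbol, 396 with several, 1193 with none). The 66 control probe sets were dropped from the 12488. The 2% trimmed means ran from 138.7 to 241.2 before scaling. One fit of the 9 arrays used limma 3.58.1 (lmFit, eBayes, R 4.3.3; 6 residual and 1.69 prior degrees of freedom), with two-sided p-values. If no array of one group and every array of the other exceeded the detection limit, the fold is the brighter geometric mean over that limit. Arrays under the floor all take its value, which hides their spread and makes such p-values small. The precision is limited by 3 arrays per group. Only the limma step was run on simulated log2 values with known changes, without the scaling, floor or filter. It recovered 64.8% of 2-fold changes in OVA against saline and 65.3% in agonist against OVA. Of its calls 5.05% and 4.68% were false. It says nothing on probe sets with arrays under the floor.

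The members, lists and rules were chosen with earlier results of these data known. Named genes are all members, up to 4 genes per list by change between OVA and saline (called ones first), the EP receptors and the nearest profiles. Genes outside this rule (Ccl1, Ccr3, Il4, Il6, Il13, Tnf, Csf1r, Lyz2, S100a8, Epx, Prg2, Prg3, Stat3, Il4ra, Stat6 and Rela) were named after their values were seen, as were genes given as called within a list. Alternatives were the scaling, floor, filter, prior, array weights, arrays fitted, replicate block, threshold and each array left out, with the tested set, scaling and floor kept in the last. Same-numbered arrays correlated in their deviations from the group means at r of −0.139 to 0.169, so the numbers were not treated as pairs.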

Additional observations from a re-analysis of the deposited data

How the results depend on the processing

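Directions of the 4 tested members in OVA against saline and in agonist against OVA were the same under every alternative run, and 0 of them were called in agonist against saline under any of those alternatives. The count of members called in OVA against saline, 4, was 2 with the filter at the 60th percentile, where only Ccl8 and Ccl11 could be tested, and 1 (Ccl2, adjusted p = 0.0461) with the replicate block; it ranged from 1 to 4 with single arrays left out. It was 3, with Ccl7 lost, without a floor, without the filter and with an intensity trend and robust prior. The count in agonist against OVA, 2, was 1 without a floor, with the floor at the 40th percentile, with the filter at the 60th percentile and with an intensity trend and robust prior. It was 0 without the filter, with only the 6 arrays compared and with the replicate block (Ccl2 adjusted p = 0.114, Ccl11 0.116), and it was 4 with array weights and at an adjusted p of 0.1. It ranged from 0 to 4 with single arrays left out. An inverse hyperbolic sine in place of the log, chosen after seeing the data because it keeps values below 0 apart, gave 3. The replicate block lowered the calls over all probe sets to 50 in OVA against saline, 14 in agonist against OVA and 2 in agonist against saline; the cause of these moves was not tested. Signal over background is the limit for Ccl2, Ccl7 and Ccl12, whose saline and agonist arrays all lie below the detection limit.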
